A study of Rattus norvegicus with 44 samples.

Results

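The results below describe the liver of male Wistar rats after 336 h of oral treatment with the compound R1 at 20 mg/kg/day, set against the vehicle rats of the same study. The comparison rests on 9 of the 44 arrays of the series, 5 of rats given R1 at 20 mg/kg/day (called R1 20 here) and 4 of rats given vehicle, a citric acid buffer. They were picked by their labels alone, as the study 2 arrays of that dose and of the vehicle at 336 h. The rats were 8 weeks old, were dosed by gavage once a day and were killed 24 h after the last dose, and RNA came from a slice of the left lateral lobe. The labels name R1 by code only. Study 2 also held 4 arrays at 100 mg/kg/day (R1 100), which share this vehicle, and a separate study 3 held 4 arrays at 30 mg/kg/day (R1 30) and 5 of its own vehicle, all at 336 h. Each array is 1 RNA sample on an Affymetrix rat array. Within a group the arrays carry replicate numbers only. Whether they stand for separate animals is not stated, so the tests see the scatter of these arrays, part of which may come from handling.

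The liver clears foreign compounds in steps. Cytochrome P450 enzymes oxidise them, transferases couple the products to glutathione, glucuronic acid or sulfate, and transporters move them out of the cell. The nuclear receptors CAR and PXR switch on many genes of the first and last steps, PXR through paired hormone response half-sites, and the factor NRF2 switches on glutathione genes through the antioxidant response element. The promoters of Cyp3a23-3a1, Gstp1 and Gsta3 are shown because these 3 genes are among the largest rises and carry such letters close to the start site. Each line gives the 250 bases before the RefSeq start on build GRCr8, written 5′ to 3′ on the gene's strand, with the match in capitals.
Cyp3a23-3a1 (chr12:14398804-14399053, minus strand): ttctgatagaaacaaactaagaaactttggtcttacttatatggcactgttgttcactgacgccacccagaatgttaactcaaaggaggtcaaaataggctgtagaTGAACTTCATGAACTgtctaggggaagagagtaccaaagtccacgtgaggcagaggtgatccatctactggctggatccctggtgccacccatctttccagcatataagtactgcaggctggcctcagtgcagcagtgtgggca
Gstp1 (chr1:210769706-210769955, minus strand): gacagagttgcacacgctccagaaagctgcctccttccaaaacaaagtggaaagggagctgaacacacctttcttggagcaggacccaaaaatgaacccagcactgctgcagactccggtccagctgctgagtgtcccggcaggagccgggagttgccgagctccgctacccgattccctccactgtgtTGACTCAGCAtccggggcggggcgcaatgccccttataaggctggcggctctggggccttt
Gsta3 (chr9:31154739-31154988, plus strand): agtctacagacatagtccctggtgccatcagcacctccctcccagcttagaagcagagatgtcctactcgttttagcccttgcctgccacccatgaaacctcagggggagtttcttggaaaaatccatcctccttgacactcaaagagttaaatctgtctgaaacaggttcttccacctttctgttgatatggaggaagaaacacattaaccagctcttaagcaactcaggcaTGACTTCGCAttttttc
In Cyp3a23-3a1 the capitals mark a direct repeat of the half-site spaced by 3 bases, AGTTCA and again AGTTCA, which reads on the opposite strand 144 to 130 bases before the start. Searched on both strands, that repeat was in 2 of 33469 RefSeq rat promoters of this length (0.00598%), those of Cyp3a23-3a1 and Cyp3a2. In Gstp1 and Gsta3 the capitals mark TGACT and GCA with any 2 bases between, a long form of the antioxidant response element that holds the shorter core TGACNNNGC. It began 61 bases before the start in Gstp1 and 17 in Gsta3, and was in 250 of 33469 promoters (0.747%). Counting a gene with any listed start, it was in 20 of 3031 tested genes that have a listed promoter (0.66%). It was in 2 of 81 such genes called higher at R1 20 (2.47%), Gstp1 and Gsta3. Of the genes called lower it was in 2 of 51 (3.92%), Clec4f and Cxcl10. The other RefSeq start of Gsta3 had no match in its window. A match is a string of letters and not a bound site.

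Over all 6361 probe sets tested, 282 were called at R1 20 against vehicle (4.43%), 162 higher (2.55%) and 120 lower (1.89%). A call is a Benjamini-Hochberg adjusted p under 0.05 in limma, fitted on log2(signal + 2.89) over all 44 arrays. Named by 1 representative probe set each, 158 of 3693 genes were called (4.28%), 93 higher (2.52%) and 65 lower (1.76%). The change was at least 2-fold on that scale for 57 of the 93 higher genes and 30 of the 65 lower ones. In 310 genes (8.39%) the arrays of both groups did not overlap, and 137 genes (3.71%) were both called and without overlap. In limma 544 of 3693 genes (14.7%) had an unadjusted p under 0.05. That share stands beside each list's count at an unadjusted p, and 4.28% beside each list's calls. Of the genes named below, Gsta1, Ugdh, Cyp4a8, Dpp4, Krt18, Scd, Cbr1, Apoc3, Fn1, Sult2a2, Phgdh, Lss, Me1, Igfals, Gnmt, Agxt and Pex2 had further probe sets that were not called. Changes are given as log2 differences ± SE, R1 20 minus vehicle, and array signals are listed in the order of the replicate numbers. Signal is the deposited intensity, on a scale that had been made equal between arrays, so a level is relative within its array and shows no order between genes.

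**Figure D1:**
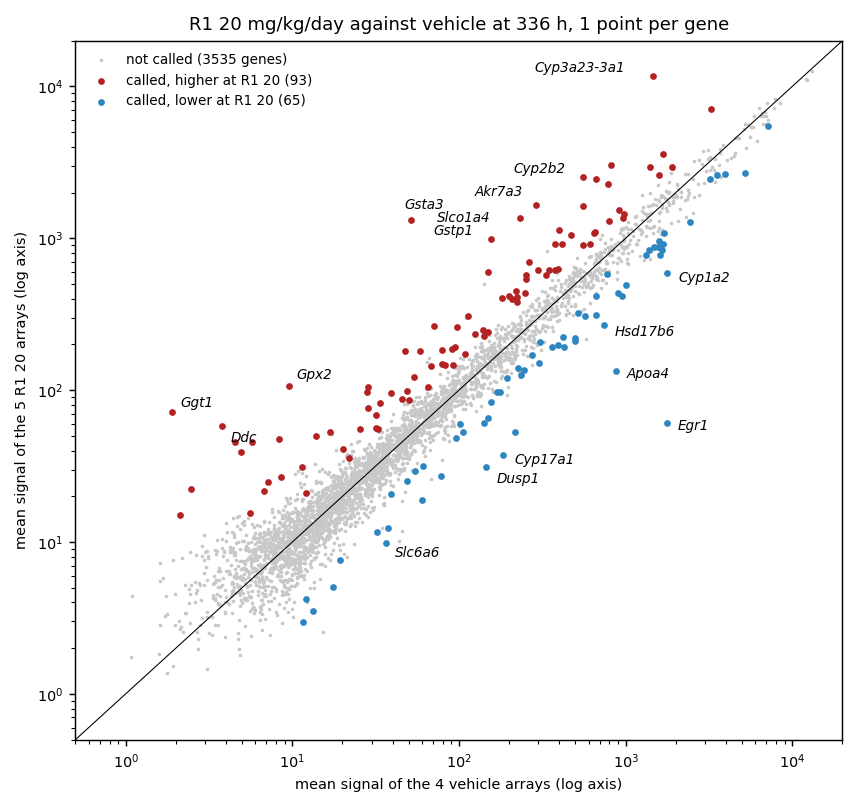
Mean signal of each of 3693 genes on the 4 vehicle arrays (x axis, log scale) and on the 5 R1 20 arrays (y axis, log scale), with the line of equality. The 93 genes called higher (red) and the 65 called lower (blue) lie on both sides of the line, with Gsta3 and Ggt1 farthest above it and Egr1 farthest below it among the labelled genes.

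Data quality was even across the comparison, with 1 array apart. Correlations over the tested probe sets were 0.963 to 0.974 among the vehicle arrays and 0.943 to 0.972 among the R1 20 arrays. R1 20 array 3 had the lowest quality weight of the 9 arrays (0.429, the others 1.01 to 1.78), and without it 232 probe sets were called. Leaving out each of the 9 arrays in turn gave 208 to 272 calls. The vehicle of study 2 and that of study 3 differed in 1135 of 6361 probe sets (17.8%), more than R1 20 and its own vehicle did, and levels in the vehicle of study 3 are given below where a result touches them.

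The drug oxidases of the P450 families known as CAR and PXR targets were higher in 3 of 9 genes tested and lower in 1, with a list median of 0.54 beside -0.00036 over all 3693 genes. Cyp3a23-3a1, a major drug oxidase of rat liver and the owner of the paired half-site shown above, had signals of 1279, 1379.9, 1025 and 2197 on the vehicle arrays and 11688, 12071, 10258, 12597 and 12071 on the R1 20 arrays. Every R1 20 array was above every vehicle array, and the change was 3.05 ± 0.16 (adjusted p = 1.65e-18). The R1 20 signals lie close to the top of the scale, 13236, where a shared scale leaves little room for a larger change. Cyp3a18, another oxidase of the family, read 783, 599.5, 658 and 607 with vehicle and 1984, 1976, 3098, 3035 and 2143 at R1 20, again without overlap (1.86 ± 0.20, adjusted p = 1.92e-09). Cyp2b2, the phenobarbital-type oxidase, read 689.8, 323, 634 and 559 with vehicle and 2552, 1233, 2442, 2902 and 3532 at R1 20, and its lowest R1 20 array was above its highest vehicle array (2.17 ± 0.28, adjusted p = 3.94e-07).

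Other members of the same families moved less or not past the threshold. Cyp2b15, which is not on the list counted above, rose from a vehicle range of 65.7 to 70.5 to one of 101 to 181 at R1 20 (1.01 ± 0.22, adjusted p = 0.00221). Cyp3a9 (1.40 ± 0.47, adjusted p = 0.0834) and Cyp3a2 (0.54 ± 0.21, adjusted p = 0.154) were not called, and in both R1 20 array 3 was the lowest of its group, at 128 and 1592. Cyp2c7, an oxidase known to be higher in female rats, fell from 4304, 5377, 4914 and 6196 with vehicle to 1601, 2621, 3435, 3284 and 2468 at R1 20, with no overlap (-0.99 ± 0.20, adjusted p = 0.00114). Cyp2c6v1 was at 0.30 ± 0.17 and Cyp2b3 at 0.25 ± 0.21, neither called. Cyp3a and Cyp2b genes are close relatives, and a probe set of one can read RNA of another. None of 10 genes for P450 reductase, cytochrome b5 and heme supply was called by limma, with 4 at an unadjusted p under 0.05. The 10 include Por, which passes electrons to P450 enzymes (0.36 ± 0.33, adjusted p = 0.694), and Alas1, the first step of heme synthesis (0.49 ± 0.22, adjusted p = 0.251).

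**Figure D2:**
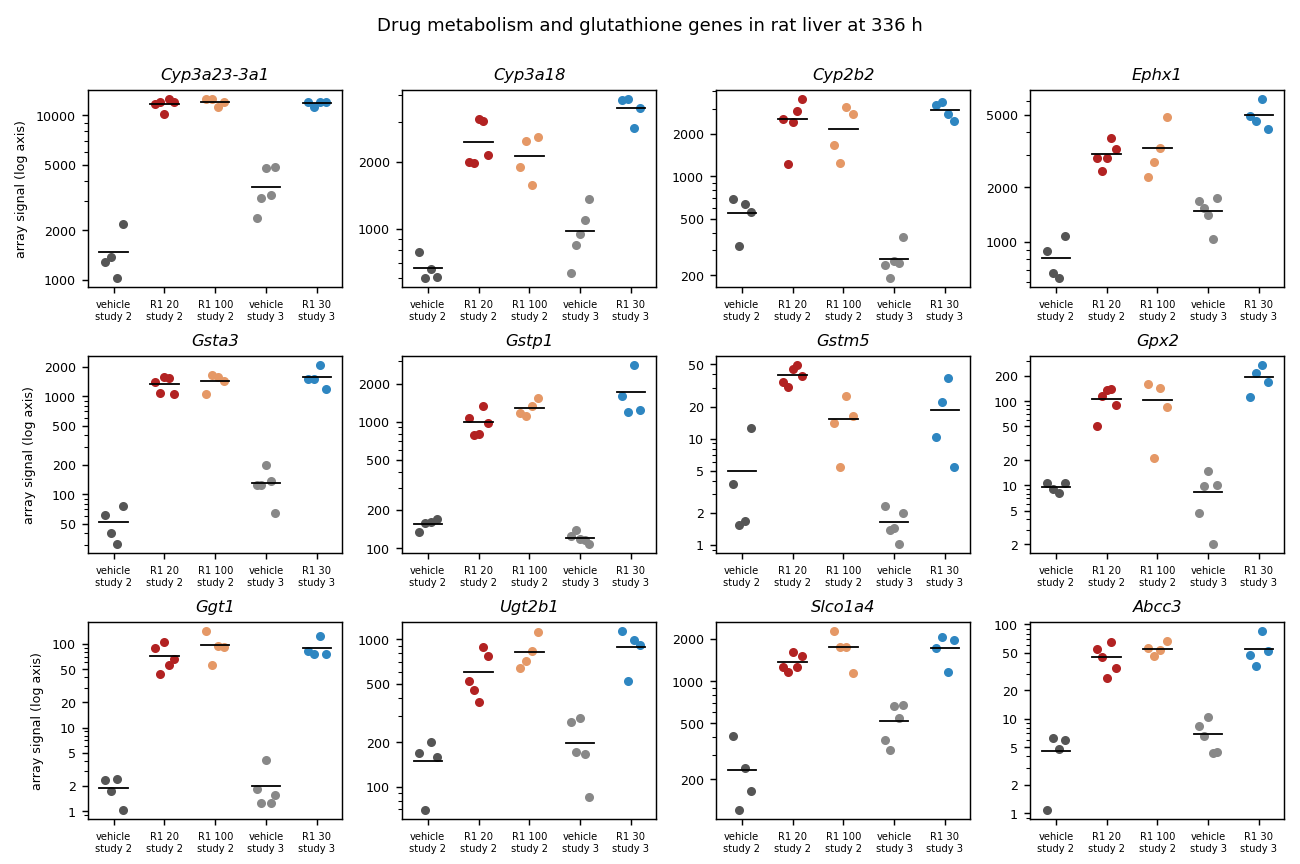
Signal of each array (dots, log axis) and group mean (bar) for 12 genes of drug metabolism and glutathione in 5 groups at 336 h. In every panel the 5 R1 20 arrays lie above the 4 vehicle arrays of study 2. Cyp3a23-3a1 reached signals near the top of the scale in all 3 R1 groups, while its vehicle mean was 1470.4 in study 2 and 3696 in study 3.

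Glutathione transferases, which couple electrophiles to glutathione, held the largest number of calls among the lists, 8 higher of 15 tested. Their list median was 0.65, with 14 of 15 above 0. Gsta3, an alpha-class transferase whose promoter is shown above, read 60.6, 40.4, 31.0 and 75.5 with vehicle and 1379.9, 1078, 1548, 1543 and 1041 at R1 20. Its lowest R1 20 array, 1041, stood far above its highest vehicle array, 75.5, and the change was 4.65 ± 0.38 (adjusted p = 1.48e-12), with 3 of 3 probe sets called higher. Gstp1, a transferase that adult rat hepatocytes normally hold at low levels, read 134, 156, 162 and 171 with vehicle and 1069, 788, 797, 1335 and 979 at R1 20 (2.63 ± 0.23, adjusted p = 1.36e-11). Its vehicle arrays were tight, and no R1 20 array was near them. Gstm5 read 3.77, 1.55, 1.67 and 12.7 with vehicle and 33.7, 30.4, 44.9, 49.2 and 38.4 at R1 20 (2.62 ± 0.36, adjusted p = 9.97e-07), with a vehicle mean under 9.17, the level of the filter on dim probe sets, so the size of its rise is uncertain. The same limit holds for 12 of the 93 higher genes (12.9%).

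Members with strong vehicle signal changed by smaller factors. Mgst2, a membrane-bound relative, rose by 1.40 (213 to 316 with vehicle, 564 to 870.4 at R1 20, adjusted p = 3.88e-08). Gsta4, which handles lipid aldehydes, rose by 1.30 (286 to 499.9 and 763 to 1034, adjusted p = 6.63e-07). Gstm1 was 1.14 ± 0.17 (adjusted p = 5.46e-06) and Gstm2 1.07 ± 0.20 (adjusted p = 2.90e-04), both without overlap. Gsta1 was called at 0.65 ± 0.18, but not without vehicle array 1 or 3 or R1 20 array 2 or 4 (adjusted p up to 0.194). Mgst1 (0.10 ± 0.12) and Gstm7 (-0.57 ± 0.29) were not called, and R1 20 array 3 was again the lowest in both. Genes of the Gsta and Gstm groups are near-identical in places, so a value may be that of more than 1 member.

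Antioxidant and glutathione supply genes known as NRF2 targets were called higher in 6 of 20, with a list median of 0.44. Ggt1, gamma-glutamyltransferase, which splits glutathione outside the cell and is nearly silent in adult hepatocytes, read 2.37, 1.75, 2.40 and 1.03 with vehicle and 88.7, 44.1, 106, 55.2 and 65.3 at R1 20 (3.91 ± 0.25, adjusted p = 6.18e-16). Gpx2, a glutathione peroxidase best known from the gut, read 10.6, 9.03, 8.03 and 10.7 with vehicle and 51.1, 115, 135, 139 and 89.9 at R1 20 (3.05 ± 0.39, adjusted p = 2.68e-07). For both genes the groups were far apart. The vehicle mean of Ggt1 was under 9.17, so its fold is uncertain in size.

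Of the 20 genes on that list, 17 were above 0 and 11 had an unadjusted p under 0.05 in limma, and the calls divided the rest of it. Me1, which makes NADPH from malate, rose from 75.4, 60.2, 61.9 and 87.4 with vehicle to 241, 186, 266, 364 and 272 at R1 20 (1.84 ± 0.35, adjusted p = 3.31e-04), and Tkt, transketolase of the pentose phosphate pathway, from 98.9, 94.6, 97.1 and 97.5 with vehicle to 266, 137, 363, 258 and 269.9 at R1 20 (1.33 ± 0.22, adjusted p = 5.25e-05). Neither gene's groups overlapped. Taldo1, the partner of transketolase, was called at 0.71 ± 0.19, but not without vehicle array 3 or R1 20 array 3 or 4 (adjusted p up to 0.108), and Prdx1, a peroxiredoxin, at 0.49 ± 0.14, but not without vehicle array 1, 2, 3 or 4 or R1 20 array 1, 2 or 3 (adjusted p up to 0.0999). Classic members of the same programme were not called: Nqo1 (1.40 ± 0.52, adjusted p = 0.134), Gclc, which limits glutathione synthesis (0.11 ± 0.21, adjusted p = 0.888), Txnrd1 (0.39 ± 0.20, adjusted p = 0.386) and Hmox1 (0.09 ± 0.26, adjusted p = 0.927). Nqo1 read 19.4, 122, 39.8 and 81.7 with vehicle and 171, 202, 100.0, 269 and 70.9 at R1 20, so its groups overlapped across a wide vehicle range. Gsr, glutathione reductase, was not called on its representative probe set (0.64 ± 0.20, adjusted p = 0.0586), while 2 of its 3 probe sets were.

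The shorter core TGACNNNGC was found in 3373 of 33469 promoters (10.1%) and, counting a gene with any listed start, in 433 of 3031 tested genes (14.3%). It was in 19 of 81 higher genes with a listed promoter (23.5%) and in 10 of 51 lower ones (19.6%). Gstm5, Gpx2, Me1, Ephx1, Idi1 and Fdps were among the higher genes that hold it. The sterol response element, TCACNCCAC, by which the factor SREBP2 acts on cholesterol genes, was in 326 of 33469 promoters (0.974%) and in 26 of 3031 tested genes (0.858%). It was in none of the 6 cholesterol synthesis genes called higher, in 1 of 81 higher genes and in 1 of 51 lower genes. The shares are descriptions of these windows, and the motifs were chosen with the results known.

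Of the conjugation and hydrolysis genes beyond the glutathione transferases, a part of each list was called higher. Ephx1, microsomal epoxide hydrolase, read 894, 675, 632 and 1078 with vehicle and 2884, 2442, 2884, 3723 and 3240.3 at R1 20 (1.90 ± 0.22, adjusted p = 1.24e-08). Akr7a3, aflatoxin aldehyde reductase, read 345, 220.3, 289 and 308 with vehicle and 1332, 844, 2230.4, 2122 and 1697 at R1 20 (2.43 ± 0.31, adjusted p = 1.93e-07). Ugt2b1, a glucuronosyltransferase, read 168, 69.5, 201 and 158 with vehicle and 516, 449, 373, 879 and 765 at R1 20 (2.00 ± 0.31, adjusted p = 1.25e-05). None of these 3 genes overlapped between groups. Of 7 glucuronidation genes tested, 6 were above 0, and the list median was 0.71. The 2 called higher were Ugt2b1 and Ugdh, which makes the glucuronic acid donor (0.71 ± 0.21). Ugdh lost its call without vehicle array 1, 2 or 3 or R1 20 array 3, 4 or 5 (adjusted p up to 0.172). The relatives Ugt2b15 (0.07 ± 0.21) and Ugt2b35 (0.05 ± 0.23) were not called, and R1 20 array 3 was the lowest of its group in each.

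Sult2a2, a hydroxysteroid sulfotransferase typical of female rats, rose from 273, 722, 265 and 329.6 with vehicle to 1329, 1034, 968, 1397 and 958 at R1 20 (1.62 ± 0.31, adjusted p = 4.49e-04). Its relative Sult2a6 was called at 1.15 ± 0.30, but not without vehicle array 1 or 3 or R1 20 array 4 (adjusted p up to 0.0968), and Sult2a1 was at 0.09 ± 0.23, not called. Aldh1a1, retinal dehydrogenase, rose from 852, 610.2, 759 and 901 with vehicle to 2037, 2001, 2962, 2134 and 2315 at R1 20 (1.55 ± 0.29, adjusted p = 3.49e-04), and Akr1d1, which reduces bile acid and steroid intermediates, from between 333 and 614 with vehicle to between 776 and 1205 at R1 20 (1.17 ± 0.25, adjusted p = 0.00174). In the same list of 26 aldehyde, ketone, ester and epoxide genes, 5 were higher and 2 lower, and the median was -0.18. The 2 lower genes were Cyp1a2, described with the falls, and Cbr1, carbonyl reductase (-1.51 ± 0.42), which lost its call without vehicle array 2 or 4 or R1 20 array 3 or 4 (adjusted p up to 0.14).

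Of 7 uptake and 8 export transporter genes of the hepatocyte, 1 and 2 were called, each higher. Slco1a4, an organic anion uptake carrier of the blood side, read 404, 121, 241 and 165 with vehicle and 1263, 1163, 1606, 1258 and 1512 at R1 20 (2.67 ± 0.26, adjusted p = 1.66e-10), and was the 1 called gene of 7 uptake carriers. Abcc3, which exports conjugates back to blood, read 1.08, 6.33, 4.83 and 5.90 with vehicle and 54.5, 45.0, 26.8, 65.5 and 34.3 at R1 20 (2.71 ± 0.32, adjusted p = 2.56e-08), from a vehicle mean under 9.17. Both genes were separate between groups. Abcc2, the export pump of the bile side, was called at 0.80 ± 0.23, but not without vehicle array 1, 2, 3 or 4 or R1 20 array 1, 2, 4 or 5 (adjusted p up to 0.136). The main bile acid carriers Slc10a1 (-0.12 ± 0.19) and Abcb11 (0.03 ± 0.20) were not called.

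Cholesterol synthesis runs from acetyl-CoA through mevalonate to squalene and on to cholesterol, and its genes are switched on together when cell sterol is low. Before squalene, 3 of 5 genes tested were called, all higher, with a list median of 1.10. Acat2, the cytosolic thiolase at the start, read 1.16, 5.90, 9.49 and 6.34 with vehicle and 67.6, 16.8, 75.7, 42.4 and 24.7 at R1 20 (2.41 ± 0.33, adjusted p = 7.69e-07), from a vehicle mean under 9.17. Idi1, isopentenyl diphosphate isomerase, read 29.8, 60.6, 54.3 and 44.4 with vehicle and 233, 129.8, 256, 221 and 71.3 at R1 20 (1.79 ± 0.30, adjusted p = 6.70e-05), but only 1 of its 2 probe sets was called. Fdps, farnesyl diphosphate synthase, read 328, 355, 563 and 418 with vehicle and 1132, 616, 1292, 923 and 622 at R1 20 (1.10 ± 0.21, adjusted p = 3.37e-04). In these 3 genes no arrays overlapped between groups, and R1 20 arrays 2 and 5 were the lowest of their group in each. Mvk, mevalonate kinase (-0.21 ± 0.21), and Mvd, a decarboxylase later in the pathway (0.32 ± 0.33), were not called.

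After squalene, 3 of 9 genes were higher and 1 lower, with a median of 0.57. Cyp51, lanosterol demethylase, rose from 90.2, 96.8, 123 and 143 with vehicle to 366, 213, 324, 323 and 317 at R1 20 (1.42 ± 0.20, adjusted p = 1.18e-06), with 2 of 5 probe sets called, and Ebp, a sterol isomerase, from 216, 261, 281 and 259 with vehicle to 355, 384, 790.4, 669 and 498 at R1 20 (1.01 ± 0.21, adjusted p = 0.00118). Neither overlapped. Lss, lanosterol synthase, was called at 0.70 ± 0.20, but not without vehicle array 1 or 4 or R1 20 array 1 or 3 (adjusted p up to 0.139). Nsdhl, a sterol dehydrogenase of the same pathway, went the other way, from 206, 184, 191 and 199 with vehicle to 72.5, 102, 165, 135 and 128 at R1 20 (-0.73 ± 0.20, adjusted p = 0.0234), but not without vehicle array 1, 3 or 4 or R1 20 array 1 or 2 (adjusted p up to 0.11). The list's 4 calls became 2 without vehicle array 1 or 4 or R1 20 array 1. Sqle, squalene epoxidase (0.82 ± 0.30, adjusted p = 0.128), Msmo1 (0.50 ± 0.20, adjusted p = 0.187) and Fdft1, squalene synthase (0.57 ± 0.19, adjusted p = 0.0845), were not called, nor was Insig1, a brake on the pathway (-0.44 ± 0.26).

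These vehicle levels of study 2 were low beside those of study 3. Acat2 averaged 81.7 ± 8.78 (SD, n = 5) on the study 3 vehicle arrays, far above its study 2 vehicle mean of 5.72 ± 3.43 (SD, n = 4). Fdps averaged 1589.6 ± 203 (SD, n = 5) there against 416 ± 105 (SD, n = 4), and Cyp51 581 ± 50.2 (SD, n = 5) against 113 ± 24.5 (SD, n = 4). The vehicle difference, study 2 minus study 3, was -3.40 ± 0.33, -1.95 ± 0.21 and -2.35 ± 0.20 for the 3 genes (largest adjusted p of the 3, that of Fdps, adjusted p = 1.64e-09). All 5 R1 20 arrays were under all 5 vehicle arrays of study 3 in Fdps and Cyp51. The part of the vehicle level in these rises was not tested.

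**Figure D3:**
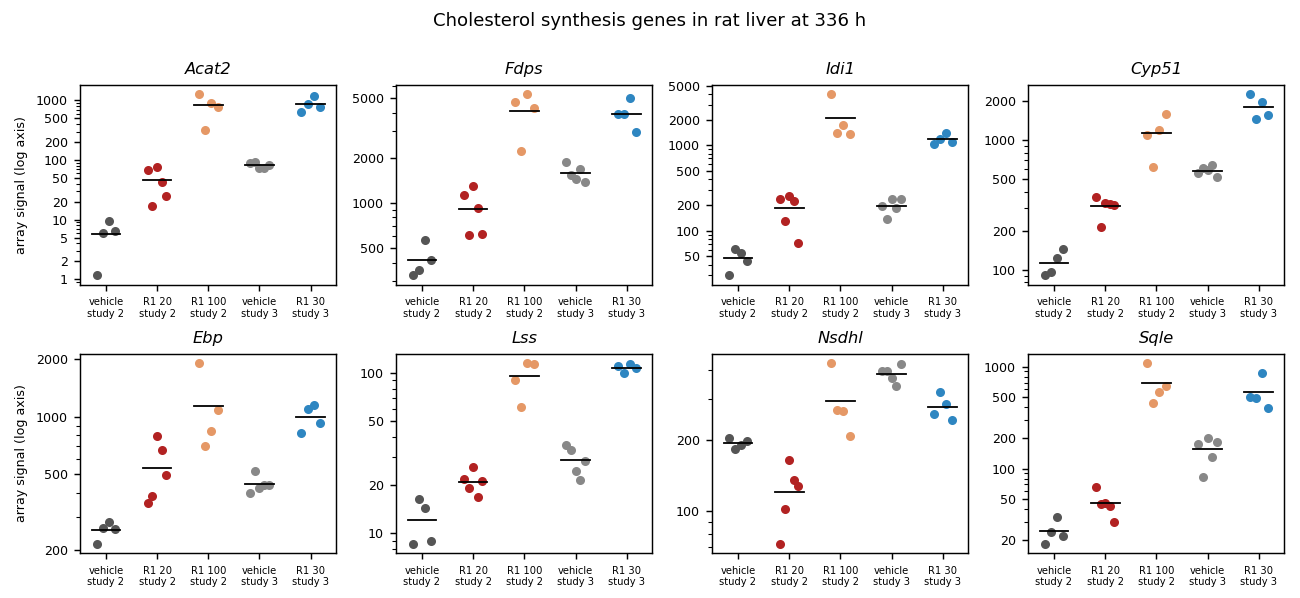
Signal of each array (dots, log axis) and group mean (bar) for 8 cholesterol synthesis genes in 5 groups at 336 h. In Acat2, Fdps, Idi1, Cyp51, Ebp and Lss the R1 20 arrays lie above the vehicle of study 2, in Nsdhl below it, and the vehicle of study 3 is above that of study 2 in every panel.

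Of the 20 largest rises, Ddc, Pcp4, Nol3 and Tsx had weak vehicle signal, as had Ggt1, Gstm5, Abcc3 and Acat2 described above. Ddc, dopa decarboxylase, which makes dopamine and serotonin, read 3.94, 4.39, 3.18 and 3.62 with vehicle and 58.7, 46.2, 54.0, 64.8 and 67.6 at R1 20 (3.19 ± 0.21, adjusted p = 1.90e-15). The vehicle arrays of study 3 read 143, 97.6, 159, 133 and 143, above every R1 20 array. Pcp4, a calmodulin-binding peptide of neurons, rose from between 0.753 and 3.77 with vehicle to between 12.1 and 37.7 at R1 20 (2.18 ± 0.39, adjusted p = 1.27e-04), Nol3, an inhibitor of cell death known from muscle, from between 3.72 and 10.6 with vehicle to between 33.4 and 63.2 at R1 20 (2.18 ± 0.35, adjusted p = 2.52e-05), and Tsx from between 0.548 and 3.19 with vehicle to between 8.07 and 25.7 at R1 20 (1.75 ± 0.40, adjusted p = 0.00338). The vehicle means of these 4 genes were under 9.17. Further genes called higher were App, the amyloid precursor protein, which rose from 49.1, 59.3, 66.6 and 59.7 with vehicle to 204, 132, 230.5, 173 and 168 at R1 20 (1.57 ± 0.22, adjusted p = 1.18e-06), and Bex3, a small adaptor of neurotrophin signalling, from 43.4, 21.0, 24.0 and 23.3 with vehicle to 116, 79.7, 130.1, 79.9 and 79.1 at R1 20 (1.72 ± 0.26, adjusted p = 6.79e-06). Both had 2 of 2 probe sets called. Mep1a, a brush-border protease of gut and kidney, rose from 30.0, 29.1, 30.8 and 24.1 with vehicle to 83.3, 67.2, 107, 182 and 82.9 at R1 20 (1.69 ± 0.32, adjusted p = 3.10e-04).

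Ggt1, Gstp1, Akr7a3, Abcc3 and Ddc were the 5 called genes of 13 on a list of markers used for altered hepatocyte foci in rats, and Afp, alpha-fetoprotein of fetal liver, was at -0.14 ± 0.23 (adjusted p = 0.869). The median of the list of foci markers was 0.18, with 8 genes above 0 and 5 below. That list shares Ggt1, Gstp1, Akr7a3 and Abcc3 with the lists above. Keratins of simple epithelia rose by less, Krt18 from 816, 907, 1119 and 832 with vehicle to 1474, 1151, 1939.5, 1432 and 1643 at R1 20 (0.72 ± 0.17, adjusted p = 0.00621) and Krt8 by 0.77 ± 0.23, lost without vehicle array 1, 2 or 4 or R1 20 array 1, 3, 4 or 5 (adjusted p up to 0.127). Epcam, an adhesion molecule of bile ducts, was called at 1.07 ± 0.30, lost without vehicle array 1 or R1 20 array 1 (adjusted p up to 0.19). With Dpp4, a surface peptidase (0.65 ± 0.18, lost without vehicle array 3 or 4 or R1 20 array 1 (adjusted p up to 0.0981)), they made 4 called of 23 epithelial genes, which became 1 without R1 20 array 1. Aldh1l1, a folate enzyme, rose from between 183 and 257 with vehicle to between 315 and 599 at R1 20 (1.01 ± 0.18, adjusted p = 1.19e-04), and Gaa, acid glucosidase of lysosomes, from between 175 and 225 with vehicle to between 310.0 and 563 at R1 20 (0.91 ± 0.17, adjusted p = 3.77e-04).

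Immediate early genes are switched on within minutes by growth and stress signals. The list of 16 tested had 3 called, all lower, and a median of -0.67, with 15 of 16 below 0. Egr1, a zinc-finger factor of this class, read 1237, 1636, 1022 and 3160.4 with vehicle and 75.5, 106, 22.7, 63.3 and 35.6 at R1 20 (-4.84 ± 0.63, adjusted p = 3.52e-07). Every R1 20 array was under every vehicle array by a wide margin, and 3 of 4 probe sets were called. The vehicle arrays of study 3 read 87.8, 193, 167, 50.1 and 365, also under those of study 2. Dusp1, a phosphatase that ends MAP kinase signals, read 147, 136, 114 and 185 with vehicle and 29.0, 61.4, 14.7, 23.8 and 27.7 at R1 20 (-2.23 ± 0.48, adjusted p = 0.00196). Jun read 59.3, 54.8, 85.6 and 114 with vehicle and 25.7, 23.5, 30.0, 34.4 and 22.5 at R1 20 (-1.39 ± 0.30, adjusted p = 0.00176), with 2 of 4 probe sets called. Both genes were lower on all 5 R1 20 arrays. Fos (-0.30 ± 0.31, adjusted p = 0.747) and Nr4a1 (-1.07 ± 0.37, adjusted p = 0.0955), factors of the same kind, were not called.

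Of 12 genes on a list of p53 targets and growth arrest, 1 was higher, Ephx1, and 2 were lower, Sgk1 and Inhbe, with a median of -0.27. Sgk1, a kinase induced by glucocorticoids, fell from 47.6, 44.7, 85.2 and 61.8 with vehicle to 29.8, 16.6, 20.0, 10.5 and 17.0 at R1 20 (-1.55 ± 0.32, adjusted p = 0.0012). Inhbe, an activin chain made by hepatocytes, fell from between 81.2 and 126 with vehicle to between 41.6 and 68.6 at R1 20 (-0.95 ± 0.23, adjusted p = 0.00819). Hes1, Tcf21 and Actg1 were among the 20 largest falls. Hes1, the Notch target, read 123, 134, 161 and 147 with vehicle and 86.3, 85.3, 8.29, 54.4 and 69.5 at R1 20, with R1 20 array 3 far under the rest (-1.48 ± 0.40), and it lost its call without vehicle array 3 or 4 or R1 20 array 3 (adjusted p up to 0.138). Tcf21, a mesenchymal factor with weak signal, was called at -1.34 ± 0.38, but not without vehicle array 2, 3 or 4 or R1 20 array 4 or 5 (adjusted p up to 0.114). Actg1, cytoplasmic actin, fell from 811, 687, 1095 and 1237 with vehicle to 414, 309, 375, 452 and 538 at R1 20 without overlap (-1.18 ± 0.24, adjusted p = 0.00112).

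**Figure D4:**
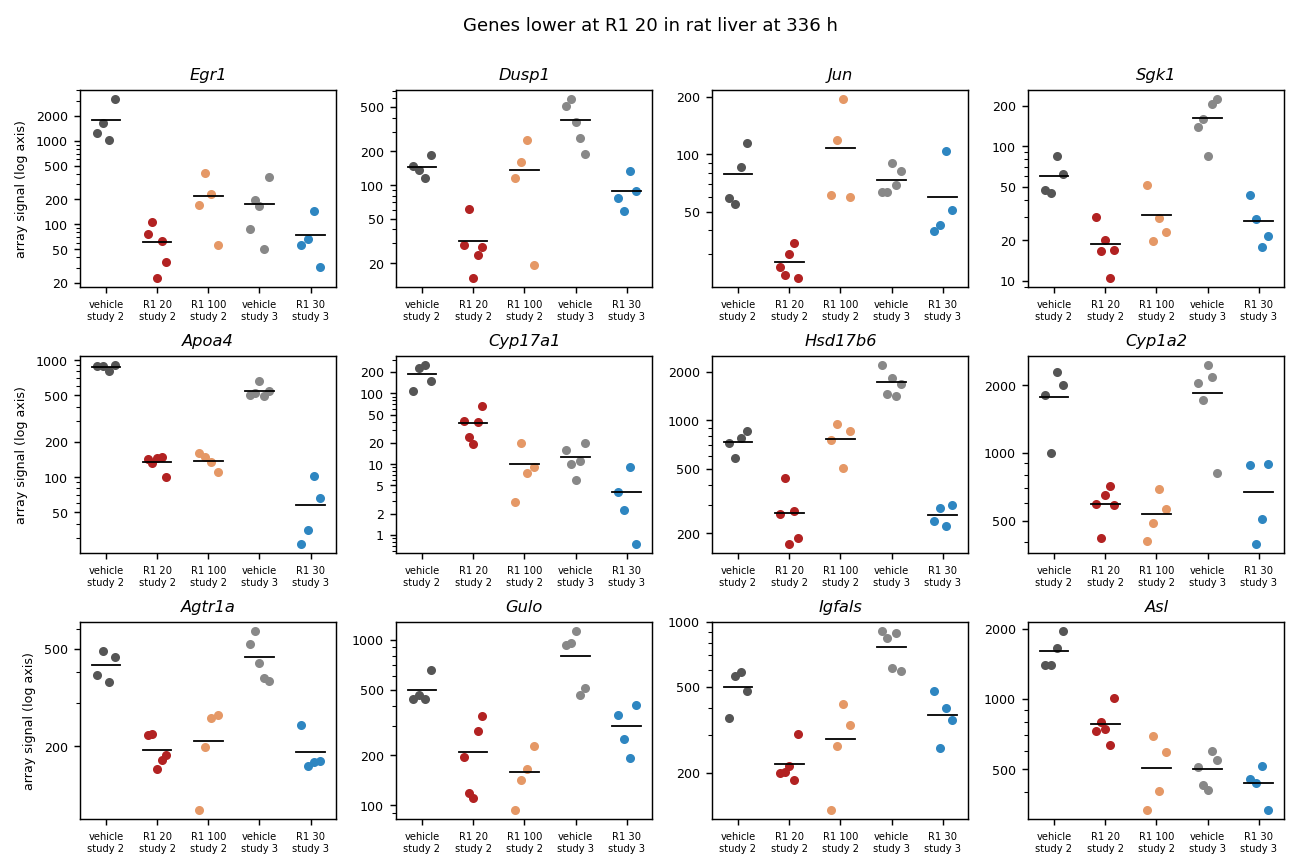
Signal of each array (dots, log axis) and group mean (bar) for 12 genes called lower at R1 20, in 5 groups at 336 h. In every panel the R1 20 arrays lie under the 4 vehicle arrays of study 2. For Egr1, Cyp17a1 and Asl the vehicle of study 3 is also under that of study 2, and for Hsd17b6 and Sgk1 it is above it.

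Of 13 genes of steroid metabolism, Cyp17a1 and Hsd17b6 were lower and Akr1d1 was higher, with a median of -0.06. Apoa4, an apolipoprotein that rises with fat load in liver, read 897, 889, 801 and 909 with vehicle and 142, 133, 147, 149 and 99.2 at R1 20 (-2.69 ± 0.38, adjusted p = 2.10e-06). Cyp17a1, steroid 17-hydroxylase, read 108, 231, 252 and 147 with vehicle and 40.3, 24.2, 19.3, 39.0 and 65.5 at R1 20 (-2.24 ± 0.41, adjusted p = 1.84e-04), and Hsd17b6, a dehydrogenase of androgens and retinol, 727, 582, 780.4 and 863 with vehicle and 262, 438, 171, 276 and 187 at R1 20 (-1.52 ± 0.23, adjusted p = 5.60e-06). The 3 genes had no overlap between groups. Scd, stearoyl-CoA desaturase, read 127, 87.3, 483 and 172 with vehicle and 68.5, 43.5, 45.0, 60.3 and 48.0 at R1 20, with vehicle array 3 far above the rest (-1.69 ± 0.46, adjusted p = 0.0195), and it lost its call without vehicle array 3 (adjusted p up to 0.185). Elovl5, a fatty acid elongase, fell from 650.2, 1005, 1103 and 861 with vehicle to 318, 419, 503, 463 and 472 at R1 20 (-1.04 ± 0.20, adjusted p = 3.31e-04). Lcat, which esterifies plasma cholesterol, fell from between 1452 and 1841 with vehicle to between 1041 and 1129.6 at R1 20 (-0.64 ± 0.13, adjusted p = 8.30e-04).

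Of 22 lipoprotein and fatty acid binding genes, 3 were lower, Apoa4, Fabp7 and Apoc3, with a median of -0.30. Fabp7 was called at -1.19 ± 0.31, but not without vehicle array 3 or R1 20 array 3, 4 or 5 (adjusted p up to 0.121), and Apoc3, a brake on triglyceride clearance, at -0.39 ± 0.10, but not without vehicle array 1 or 4 (adjusted p up to 0.0981). None of 21 genes of mitochondrial fatty acid oxidation was called by limma, with 7 at an unadjusted p under 0.05 and 19 of 21 below 0 (median -0.30). The lowest of the 21 was Cpt1a, which lets fatty acids into mitochondria and read 1437, 1254, 1527 and 1496 with vehicle and 776, 712, 1019, 718 and 876 at R1 20 (-0.81 ± 0.27, adjusted p = 0.0763). Its vehicle mean was 148 ± 43.4 (SD, n = 5) in study 3. In the peroxisomal list of 18, Ehhadh (-0.88 ± 0.22) and Crot (-1.02 ± 0.28) were lower and Cyp4a8 (1.30 ± 0.37) was higher, and 0 of the 3 calls were left without R1 20 array 3. Ehhadh lost its call without vehicle array 2 or R1 20 array 3 (adjusted p up to 0.076), Crot without vehicle array 1, 3 or 4 or R1 20 array 3 or 4 (adjusted p up to 0.136) and Cyp4a8 without vehicle array 1, 3 or 4 or R1 20 array 1, 3 or 4 (adjusted p up to 0.0944).

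Cyp1a2, the caffeine oxidase that is a target of the aryl hydrocarbon receptor, fell from 1816, 998, 2303 and 2018 with vehicle to 594, 419.8, 652, 714 and 587 at R1 20 (-1.54 ± 0.32, adjusted p = 0.00118), with 3 of 3 probe sets called. Gulo, the last enzyme of vitamin C synthesis in rats, fell from 438, 463, 440.4 and 657 with vehicle to 195, 119, 109.7, 281 and 344 at R1 20 (-1.36 ± 0.27, adjusted p = 5.83e-04). Agtr1a, the angiotensin receptor of hepatocytes, fell from 392, 491, 366 and 462 with vehicle to 222, 225, 161, 176 and 184 at R1 20 (-1.13 ± 0.20, adjusted p = 7.99e-05), with 4 of 4 probe sets called. No arrays of these 3 genes overlapped. Avpr1a, the vasopressin receptor (-0.92 ± 0.26), was lost without vehicle array 1, 3 or 4 or R1 20 array 2 or 3 (adjusted p up to 0.136), and Aqp9, the glycerol channel (-0.93 ± 0.26), without vehicle array 4 or R1 20 array 3 (adjusted p up to 0.138). Slc6a6, the taurine carrier, fell from 38.1, 28.4, 49.7 and 28.9 with vehicle to 10.2, 16.2, 4.21, 1.29 and 17.8 at R1 20 (-1.81 ± 0.40, adjusted p = 0.00246). Defa5, a defensin with weak signal, fell from between 10.1 and 13.7 with vehicle to between 1.15 and 6.16 at R1 20 (-1.37 ± 0.30, adjusted p = 0.00212).

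Of 11 urea cycle and nitrogen genes all were below 0 (median -0.37) and 2 were called. Asl, argininosuccinate lyase, read 1397, 1397, 1655 and 1958 with vehicle and 731, 795, 744, 636 and 1005 at R1 20 (-1.03 ± 0.18, adjusted p = 7.40e-05), with 1 of 2 probe sets called, and its vehicle mean in study 3 was 499 ± 80.3 (SD, n = 5). Ass1, the step before it, was called at -0.44 ± 0.13, but not without vehicle array 1, 2, 3 or 4 or R1 20 array 1, 2, 4 or 5 (adjusted p up to 0.163), and Cps1, the first step, was not called (-0.67 ± 0.22, adjusted p = 0.0687). Of 17 methionine, cysteine, serine and glycine genes 5 were lower and 1 higher (median -0.49), and these 6 calls became 3 without vehicle array 3 or R1 20 array 1. Cbs, cystathionine beta-synthase, fell from between 135 and 222 with vehicle to between 72.9 and 122 at R1 20 (-0.78 ± 0.17, adjusted p = 0.00247), and Pemt, which methylates phosphatidylethanolamine, from between 608 and 688 with vehicle to between 319 and 540.0 at R1 20 (-0.68 ± 0.15, adjusted p = 0.00305). Gnmt, which uses up methyl groups (-1.04 ± 0.31), lost its call without vehicle array 1, 2 or 3 or R1 20 array 1, 3, 4 or 5 (adjusted p up to 0.183), Mat2a (-1.17 ± 0.32) without vehicle array 3 or 4 or R1 20 array 1 or 4 (adjusted p up to 0.112), and Phgdh, the serine synthesis enzyme and the 1 rise (1.33 ± 0.39), without vehicle array 2, 3 or 4 or R1 20 array 1, 3 or 5 (adjusted p up to 0.129).

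Pc, pyruvate carboxylase, fell from 301, 316, 319.5 and 278 with vehicle to 141, 171, 155, 115 and 175 at R1 20 (-1.004 ± 0.20, adjusted p = 8.40e-04). It was the 1 called gene of 23 in glycolysis and gluconeogenesis, beside 4.28% called over all genes. Pck1, the other entry step, was not called (-0.90 ± 0.41, adjusted p = 0.263), although its groups did not overlap. Of 21 other genes of amino acid catabolism, Ddc was higher and Hal lower, with a median of -0.05. Hal, histidase, was called at -0.98 ± 0.20 (adjusted p = 1.00e-03), but only in 1 of its 3 probe sets, and the mean over them was not called (-0.60, adjusted p = 0.16). Agxt, a glyoxylate enzyme, was called at -0.77 ± 0.20 and lost its call without vehicle array 4 (adjusted p up to 0.0752).

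In the acute phase list 3 of 24 genes were lower, with a median of -0.11. Apcs, serum amyloid P, fell from 1559, 1808, 1753 and 1484 with vehicle to 850.2, 1229, 689.8, 735 and 704 at R1 20 (log2 difference with 95% interval -1.29 to -0.71, adjusted p = 2.63e-06), and Itih3 from 2329, 2177, 2828 and 2456 with vehicle to 1187, 1183, 1474, 968 and 1587 at R1 20 (-0.95 ± 0.15, adjusted p = 3.09e-05). Fgb, a fibrinogen chain (-0.57 ± 0.16), lost its call without vehicle array 1, 2 or 3 or R1 20 array 1 or 4 (adjusted p up to 0.0805). On the list of complement, coagulation and serpins 1 of 24 genes was called, Serpind1, with a median of -0.11, beside 4.28% called over all genes. Serpind1, heparin cofactor, fell from 1501, 1730.4, 1723 and 1709.7 with vehicle to 739.5, 912, 1209.9, 844 and 894 at R1 20 (-0.87 ± 0.16, adjusted p = 2.12e-04). Serpina4, kallistatin, a serpin that is not on that list, fell from between 1237 and 1601 with vehicle to between 643 and 985 at R1 20 (-0.74 ± 0.15, adjusted p = 9.28e-04). All 4 of Apcs, Itih3, Serpind1 and Serpina4 were separate between groups. Fn1, fibronectin (-0.76 ± 0.18, adjusted p = 0.00435), was the 1 called gene of 28 matrix genes, again beside 4.28% over all genes. The median of the matrix genes was -0.35. Alb, albumin, read 12071 to 12597 with vehicle and 10258 to 12597 at R1 20, near the top of the scale, and was not called (-0.17 ± 0.09, adjusted p = 0.401). A2m, the injury-induced macroglobulin, read 59.4, 8.11, 66.9 and 40.2 with vehicle and 7.63, 8.71, 9.55, 7.38 and 17.4 at R1 20 and was not called (-1.59 ± 0.49, adjusted p = 0.0522).

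The growth hormone and IGF list had 2 called of 17, both lower, with a median of -0.46. Igfals, which holds IGF in its large serum complex, read 360.2, 563, 587 and 478 with vehicle and 199, 200.5, 216, 185 and 302 at R1 20 (-1.16 ± 0.24, adjusted p = 9.70e-04). Igfbp3, its partner in that complex, was called at -0.84 ± 0.25, but not without vehicle array 2 or 3 or R1 20 array 2, 4 or 5 (adjusted p up to 0.214). Igf1 (-0.46 ± 0.19, adjusted p = 0.199), the receptor Ghr (-0.57 ± 0.18, adjusted p = 0.0675) and the feedback gene Socs2 (-1.42 ± 0.47, adjusted p = 0.0732) were below 0 and not called. The male-type oxidase Cyp2c11 read 2924, 2009, 3412 and 2639 with vehicle and 2067, 1958, 1154, 1907 and 2521 at R1 20 and was not called (-0.53 ± 0.34, adjusted p = 0.518). Of 11 male-predominant genes 1 was called, the oxidase Cyp2c22, which was higher at 0.71 ± 0.20 (adjusted p = 0.0249), but not without vehicle array 2 or 3 or R1 20 array 4 or 5 (adjusted p up to 0.146), and the list median was 0.02. Of 11 female-predominant genes 2 rose, Sult2a2 and Sult2a6, and 2 fell, Cyp2c7 and Cyp17a1.

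Irf7, an interferon-response factor, fell from 46.2, 33.2, 34.3 and 36.1 with vehicle to 25.8, 14.7, 5.08, 6.87 and 9.52 at R1 20 (-1.54 ± 0.37, adjusted p = 0.00568), with 1 of 2 probe sets called. Cxcl10, an interferon-induced chemokine with weak signal, read 25.8, 20.1, 14.5 and 16.6 with vehicle and 11.4, 1.88, 3.12, 13.3 and 8.31 at R1 20 (-1.21 ± 0.33) and lost its call without vehicle array 1 or 2 or R1 20 array 2 or 3 (adjusted p up to 0.0952). These were the 2 called of 18 interferon and MHC genes, whose median was -0.21. Cxcl10 was the 1 called of 20 cytokine genes (median -0.40), beside 4.28% called over all genes.

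**Figure D5:**
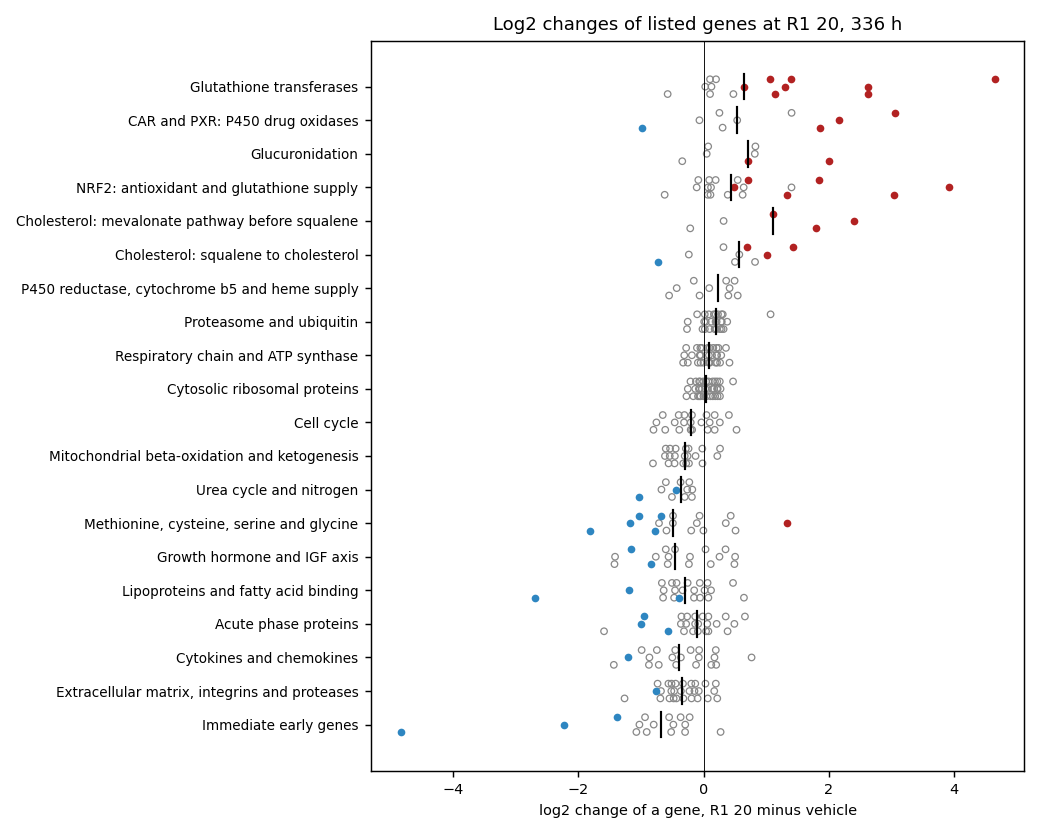
Log2 change (x axis, R1 20 minus vehicle) of each tested gene (circles) in 20 gene lists, filled where the adjusted p was under 0.05 and open where it was not, with the list median as a bar. Filled points on the right include genes of the glutathione transferase, drug oxidase, NRF2, glucuronidation and cholesterol lists. Egr1 of the immediate early genes is the point farthest to the left.

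No gene was called by limma among 36 cytosolic ribosomal proteins (median 0.04, 0 at an unadjusted p under 0.05), 31 genes of the respiratory chain (0.08, 2), 27 of the proteasome (0.19, 2, with 23 of 27 above 0), 22 of the cell cycle (-0.20, 2), 12 heat shock genes (-0.02, 1) and 34 nuclear receptors and liver factors (0.00, 3). Over all genes 4.28% were called and 14.7% had an unadjusted p under 0.05 in limma. A short list can hold no call at such a share, so these counts are a description only.

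Cell type markers were checked in the same way, since in bulk liver fewer cells of a type and less RNA per cell cannot be told apart. Hepatocyte markers had a summed signal of 73622 to 77997 on the vehicle arrays and 63724 to 76361 on the R1 20 arrays. Of these markers 1 of 16 was called, Fgb, beside 4.28% called over all genes. Of 9 cholangiocyte markers, Krt8, Krt18 and Epcam were called higher (summed signal 1197 to 1643 and 1679 to 2676). The list median was 0.14, with 5 markers above 0 and 4 below. The mean log2 signal of the 9 overlapped between groups, at 4.92 to 5.31 on the vehicle arrays and 4.99 to 5.38 on the R1 20 arrays. The duct markers Krt19 (-0.33 ± 0.37, signal 5.58 to 17.1 at R1 20) and Spp1 (-0.75 ± 0.38, signal 0.79 to 9.83) were dim and not called. Of 6 Kupffer cell and macrophage markers, Clec4f, a lectin of Kupffer cells, fell from 445, 375, 263 and 365 with vehicle to 217, 219, 169, 183 and 177 at R1 20 (-0.88 ± 0.22, adjusted p = 0.00819), and was not called without vehicle array 1 (adjusted p up to 0.0552). The summed signal of those 6 was 1121 to 1842 with vehicle and 862 to 1160 at R1 20.

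None of 9 stellate cell and fibroblast markers was called by limma, with 3 at an unadjusted p under 0.05, beside 14.7% of all genes. Their summed signal was nevertheless 669 to 909 with vehicle and 499 to 551 at R1 20, without overlap. Col1a1, a collagen chain, read 135, 156, 181 and 101 with vehicle and 72.6, 71.9, 27.6, 74.5 and 54.1 at R1 20 (-1.26 ± 0.42, adjusted p = 0.0779), and was the lowest of the 9. Endothelial markers summed to 149 to 194 and 119 to 150.4, with 0 of 6 called and 2 at an unadjusted p under 0.05. Among T or NK cell, B cell, neutrophil, mast cell and red cell markers (7, 2, 3, 5 and 4 tested) limma called 0, with 0 at an unadjusted p under 0.05. The 5 markers of pancreas, muscle or fat had 0 called and 1 at an unadjusted p under 0.05. The part of cell makeup in the changes above was not tested.

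The higher dose of the same study, R1 100, was compared with R1 20 directly at the same time point. Of 6361 probe sets 259 were called (4.07%), 133 higher at R1 100 (2.09%) and 126 lower (1.98%). Both doses share their vehicle arrays, so their changes against vehicle are not set against each other. By gene, 142 of 3693 were called (3.85%), 75 higher at R1 100 and 67 lower, with a median of -0.02. Cholesterol synthesis genes were higher in 5 of 5 tested before squalene (median 3.35) and 9 of 9 from squalene on (median 2.01). Acat2 read 1263, 323, 912 and 780.4 at R1 100 against 16.8 to 75.7 at R1 20 (R1 100 minus R1 20 4.12 ± 0.33, adjusted p = 4.76e-13). Msmo1 read 2639, 1422, 2186 and 2037 against 107 to 206 (3.82 ± 0.20, adjusted p = 2.65e-18), and Sqle 1099, 437, 566 and 644 against 29.9 to 65.4 (3.78 ± 0.30, adjusted p = 4.76e-13). In the 3 genes every R1 100 array was above every R1 20 array. Idi1 (3.49 ± 0.30), Mvd (3.35 ± 0.33), Fdft1 (2.73 ± 0.19), Insig1 (2.66 ± 0.26), Fdps (2.16 ± 0.21), Mvk (2.07 ± 0.21), Lss (2.01 ± 0.20) and Cyp51 (1.80 ± 0.20) were also higher at R1 100 (largest adjusted p, that of Cyp51, adjusted p = 3.56e-09). Nsdhl, lower at R1 20, was higher at R1 100 than at R1 20 (1.27 ± 0.20, adjusted p = 1.44e-05). Fabp4, the fatty acid binder of fat cells, was near 0 signal at R1 20 (0.605 to 3.16) and read 11.6 to 61.3 at R1 100 (3.29 ± 0.43, adjusted p = 2.20e-07).

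Of 21 genes of mitochondrial fatty acid oxidation 8 were lower at R1 100 than at R1 20 and 0 higher, with a median of -0.53, and of 18 peroxisomal genes 13 were lower and 0 higher, with a median of -1.26. Of 11 male-predominant genes Cyp2c11 and Obp3 were lower and Cyp2c22 was higher (0.69 ± 0.20), but not without R1 20 array 1, 2 or 3 or R1 100 array 2 or 4 (adjusted p up to 0.204), with a list median of -0.07. Acot1, an acyl-CoA thioesterase, read 213, 55.6, 40.3, 154 and 236 at R1 20 and 0.403, 1.44, 5.54 and 0.601 at R1 100 (R1 100 minus R1 20 -4.67 ± 0.42, adjusted p = 1.32e-11). Eci1, an isomerase of fatty acid oxidation, read 2902 to 3902 at R1 20 and 416 to 685 at R1 100 (-2.78 ± 0.18, adjusted p = 2.15e-15), and Acot2 28.6 to 155 at R1 20 and 1.24 to 16.3 at R1 100 (-2.85 ± 0.54, adjusted p = 3.21e-04). The odorant-binding protein Obp3, secreted by male rat liver, read 718 to 1406 at R1 20 and 24.9 to 182 at R1 100 (-4.04 ± 0.42, adjusted p = 1.12e-09), and the oxidase Cyp2c11 1154 to 2521 at R1 20 and 114 to 547 at R1 100 (-2.86 ± 0.34, adjusted p = 2.83e-08). Ephx2, soluble epoxide hydrolase, was also lower (-3.10 ± 0.42, adjusted p = 5.87e-07). Cpt1a (-1.83 ± 0.27, adjusted p = 2.46e-06) and Ehhadh (-2.20 ± 0.22, adjusted p = 6.04e-10) were lower with dose too. At R1 20 the representative probe sets of Acot1, Eci1, Acot2, Obp3, Cyp2c11 and Ephx2 were not called against vehicle, with Acot1 at 0.08 ± 0.42 and Eci1 at -0.32 ± 0.18.

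Of the 20 largest rises at R1 20, 2 were higher at R1 100, Acat2 and Idi1, 1 was lower, Gstm5, and 17 were not called. Of the 20 largest falls, Jun, Hsd17b6, Dusp1 and Defa5 were higher at R1 100, Cyp17a1 was lower, and 15 were not called. The same R1 20 arrays that chose these genes enter the comparison with R1 100, so the values are a description. The 95% intervals are not adjusted for the number of tests. For Cyp3a23-3a1 R1 100 minus R1 20 was 0.05, with signals of 11270.4 to 12597 at R1 100, close to the top of the scale at both doses, so no interval is given. For Gsta3 the difference was 0.11 (95% interval -0.65 to 0.88), for Gstp1 0.39 (-0.08 to 0.86), for Ggt1 0.41 (-0.10 to 0.91) and for Ephx1 0.07 (-0.36 to 0.51). For Cyp2b2 it was -0.23 (-0.80 to 0.35) and for Ddc 0.65 (0.23 to 1.08, adjusted p = 0.0764). Gstm5 was lower at R1 100 (-1.33 ± 0.36, adjusted p = 0.0218), with signals of 5.43 to 25.4 against 30.4 to 49.2, but not without R1 20 array 3 or 4 or R1 100 array 2 (adjusted p up to 0.166). Jun (1.73 ± 0.30, adjusted p = 5.77e-05) and Hsd17b6 (1.55 ± 0.23, adjusted p = 2.69e-06) were higher at R1 100 than at R1 20, with R1 100 signals of 61.4, 118, 194 and 59.5 for Jun and 751, 954, 503 and 854 for Hsd17b6. Dusp1 (1.72 ± 0.48) was not called without R1 20 array 3, 4 or 5 or R1 100 array 1, 2 or 3 (adjusted p up to 0.217), nor was Defa5 (0.98 ± 0.30) without R1 20 array 1, 3, 4 or 5 or R1 100 array 1, 2 or 4 (adjusted p up to 0.235). Apoa4 was at 0.05 (-0.72 to 0.82) and Egr1 at 1.67 (0.40 to 2.94, adjusted p = 0.169), neither called. Cyp17a1 was lower again (-1.72 ± 0.41, adjusted p = 0.00569), but not without R1 100 array 1 (adjusted p up to 0.0614).

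The nearest dose in another study was R1 30 of study 3, also at 336 h, set against its own vehicle, from which it differed in 717 of 6361 probe sets (11.3%). The 2 effects share no arrays, but dose and study change together and cannot be told apart. The R1 20 effect differed from the R1 30 effect in 40 of 6361 probe sets (0.629%), 15 more positive at R1 20 (0.236%) and 25 more negative (0.393%). That count was 24 without vehicle array 3, 20 without vehicle array 4, 19 without R1 20 array 3 and 21 without R1 30 array 3. Ddc rose by 3.19 at R1 20 and was at 0.44 ± 0.21 at R1 30 (adjusted p = 0.217), a difference of 2.75 ± 0.30 (adjusted p = 7.76e-08), with the vehicle levels given above. Cyp3a23-3a1 rose at both, by 3.05 and 1.73, and differed by 1.31 ± 0.23 (adjusted p = 0.00126), while its signal was 10258 to 12597 at R1 20 and 11270.4 to 12071 at R1 30. Its vehicle arrays averaged 3696 ± 1094 (SD, n = 5) for study 3 and 1470.4 ± 507 (SD, n = 4) for study 2.

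Aldh1a1 rose less at R1 20 than at R1 30 (1.55 and 4.01, difference -2.46 ± 0.42, adjusted p = 8.52e-04), and its vehicle read 197 ± 112 (SD, n = 5) in study 3 against 781 ± 128 (SD, n = 4). Mvk was at -0.21 at R1 20 and rose by 1.56 at R1 30 (-1.77 ± 0.30, adjusted p = 8.52e-04). Cxcl10 was lower at R1 20 and higher at R1 30 (1.14 ± 0.33), a difference of -2.34 ± 0.46 (adjusted p = 0.00582). Egr1 fell at R1 20 and was at -1.09 ± 0.63 at R1 30 (adjusted p = 0.342). The difference was -3.75 ± 0.89 (adjusted p = 0.0291), but not without vehicle array 2 or 4 or R1 20 array 3 or 5 or study 3 vehicle array 1 or 4 or R1 30 array 3 (adjusted p up to 0.117). Pex2, a peroxisome assembly factor, was at 0.69 and -0.73 (difference 1.42 ± 0.29, adjusted p = 0.00816). Its R1 20 call ended without vehicle array 1, 2 or 3 or R1 20 array 2, 3, 4 or 5 (adjusted p up to 0.191). Car5a, a mitochondrial carbonic anhydrase, was at 0.45 and -1.02 (1.48 ± 0.32, adjusted p = 0.0167), lost without vehicle array 3 (adjusted p up to 0.0518). Ptprn, a receptor-like phosphatase of secretory granules with a vehicle mean under 9.17, rose from between 4.15 and 10.7 with vehicle to between 11.5 and 29.8 at R1 20 (1.47 ± 0.34, adjusted p = 0.00481) and was at -0.64 at R1 30 (difference 2.11 ± 0.49, adjusted p = 0.0261), lost without vehicle array 3 or 4 or R1 20 array 3 or R1 30 array 2 or 3 (adjusted p up to 0.0726).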

How the data were processed

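Rat liver RNA was measured on 44 Affymetrix rat arrays, 1 array per sample, from 2 µg of total RNA per the labels' protocols. The deposited values are intensities on a linear scale, made by the authors with MAS5 per the submitters' processing notes. Sorted, the values were identical between all 44 arrays (largest difference 0, median 14.5), so a quantile step had been applied; it is not named in the sources used here. It makes a level relative within its array. Detection calls were not used here.

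Of 8799 probe sets, 59 were controls. Of the other 8740, 7006 carried 1 gene symbol, 308 several and 1426 none. Probe sets with a group mean of at least 9.17 (percentile 40) in some group were kept, 6361 in all. Values were tested as log2(intensity + 2.89), an offset at percentile 20 that understates changes of dim genes. limma 3.58.1 in R 4.3.3 was fitted with lmFit on 11 group means and eBayes with trend (33 residual and 8.84 prior degrees of freedom), with Benjamini-Hochberg adjustment over all 6361 probe sets. The code was tested on simulated data. Tables and figures used Python 3.11.15, numpy 2.4.6, pandas 2.3.3 and matplotlib 3.10.9. A gene is shown by its brightest probe set.

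Genes named are the 20 largest rises and the 20 largest falls called without overlap, up to 4 called members of each list, and the 6 largest differences each way of the other 2 comparisons, in part. Uncalled members are named where a list needs them. Some called genes that the rule does not pick are named too. They include further list members (Gsta1, Gsta4, Gstm1, Gstm2, Taldo1, Prdx1, Cbs and Pemt). App, Bex3, Mep1a, Gaa, Serpina4, Agxt and Cyp2b15 were also named outside the rule. Members, lists, motifs and this rule were chosen with earlier results of these data known. Promoters came from a RefSeq table (GRCr8). Alternatives were other scalings, offsets, filters, sample sets, array weights, a replicate block, and each array left out.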

Additional observations from a re-analysis of the deposited data

Results flagged for a closer look

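In 23 of 306 sets of arrays of a named gene and group (7.52%), 1 array stood apart from the others by Dixon's criterion, which chance meets in about 1 of 20 groups. R1 20 array 3, the array with the lowest quality weight, was the lowest in 10 of them. On that array Bmal1 read 2.21 (the other R1 20 arrays 17.0 to 28.7), Cyp3a2 read 1592 (the other R1 20 arrays 2884 to 3532) and Eci1 read 2902 (the other R1 20 arrays 3661 to 3902). There Ehhadh read 481 (the other R1 20 arrays 876 to 1095), Gstm7 read 36.7 (the other R1 20 arrays 108 to 151) and Hes1 read 8.29 (the other R1 20 arrays 54.4 to 86.3). It also had Krt19 at 5.58 (the other R1 20 arrays 14.7 to 17.1), Mgst1 at 5062 (the other R1 20 arrays 6277 to 6837) and Ugt2b15 at 865 (the other R1 20 arrays 2153 to 2442). It also had Ugt2b35 at 807 (the other R1 20 arrays 1671 to 2009).

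Of the other arrays, R1 20 array 5 was highest for A2m (17.4 against 7.38 to 9.55) and R1 20 array 5 was lowest for Apoa4 (99.2 against 133 to 149). Vehicle array 4 was highest for Aqp9 (585 against 359 to 371) and vehicle array 3 was lowest for Car5a (39.7 against 53.5 to 55.9). R1 20 array 2 was lowest for Cyp51 (213 against 317 to 366) and R1 20 array 1 was highest for Fabp4 (3.16 against 0.605 to 1.21). R1 20 array 2 was lowest for Gsr (58.5 against 89.8 to 107) and vehicle array 4 was highest for Gulo (657 against 438 to 463). Vehicle array 1 was lowest for Nr4a1 (5.22 against 24.3 to 29.5) and vehicle array 2 was lowest for Pemt (608 against 682 to 688). R1 20 array 5 was lowest for Ptprn (11.5 against 26.3 to 29.8) and vehicle array 1 was lowest for Serpind1 (1501 against 1709.7 to 1730.4). Vehicle array 4 was lowest for Slc16a1 (230.5 against 286 to 295).

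The effect at R1 20 in study 2 differed from that at R1 30 in study 3 in 11 of the genes named, by limma's test of the difference itself. It was more positive at R1 20 in Ddc 2.75 (3.19 at R1 20, 0.44 at R1 30, adjusted p = 7.76e-08), Ptprn 2.11 (1.47 at R1 20, -0.64 at R1 30, adjusted p = 0.0261) and Car5a 1.48 (0.45 at R1 20, -1.02 at R1 30, adjusted p = 0.0167). The same held for Pex2 1.42 (0.69 at R1 20, -0.73 at R1 30, adjusted p = 0.00816) and Cyp3a23-3a1 1.31 (3.05 at R1 20, 1.73 at R1 30, adjusted p = 0.00126). It was more negative at R1 20 in Egr1 -3.75 (-4.84 at R1 20, -1.09 at R1 30, adjusted p = 0.0291), Aldh1a1 -2.46 (1.55 at R1 20, 4.01 at R1 30, adjusted p = 8.52e-04) and Cxcl10 -2.34 (-1.21 at R1 20, 1.14 at R1 30, adjusted p = 0.00582). The same held for Mvk -1.77 (-0.21 at R1 20, 1.56 at R1 30, adjusted p = 8.52e-04), Lss -1.13 (0.70 at R1 20, 1.83 at R1 30, adjusted p = 0.0379) and Eci1 -1.03 (-0.32 at R1 20, 0.70 at R1 30, adjusted p = 0.048). Lss lost its call without vehicle array 2 or 3 or R1 20 array 2 or 4 or study 3 vehicle array 3 or 4 or R1 30 array 1, 3 or 4 (adjusted p up to 0.116). Eci1 lost its call in all but 1 of the 18 fits that left out 1 array (adjusted p up to 0.134). Dose and study cannot be told apart in these differences.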

How the results depend on the processing

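The 282 probe sets called at R1 20 against vehicle were 208 to 272 when each of the 9 arrays was left out in turn. They were 219 with study 2 fitted alone (200 of them shared), 296 on the 9 arrays alone and 452 with arrays weighted by quality (225 higher, 227 lower), where the weights gave R1 20 array 3 less say. The 259 called between R1 100 and R1 20 were 198 to 257 with 1 array left out and 196 with weights. The 40 called between the R1 20 and R1 30 effects were 19 to 48 with 1 array left out and 97 with weights. The cause of these shifts was not tested. Deviations of same-numbered vehicle and R1 20 arrays correlated at 0.030, 0.039, 0.068 and 0.085, and those of differently numbered ones at -0.083 to 0.090. So few pairs cannot show whether replicate numbers pair the samples weakly, and the main fit used no pairing. With the replicate number as a block, 283 probe sets were called (244 shared), 205 for R1 100 against R1 20 and 39 for the difference from R1 30. Of 106 called genes named, 68 kept the call without each array and 67 of these also in every other setting that gave a value, and no gene reversed. The number of arrays limits the precision, and dim genes have uncertain folds.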

Other observations

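Further lists held a few calls each. Among 25 other solute carriers, 4 were lower and none higher: Slc6a6, described above, Slc6a13, a GABA and taurine carrier (189.5 to 272 with vehicle, 106 to 187 at R1 20, -0.70 ± 0.21, adjusted p = 0.0388 in limma), Slc16a1, a lactate carrier (230.5 to 295 and 94.7 to 259, -0.74 ± 0.21, adjusted p = 0.0298), and Slc26a1, a sulfate carrier (281 to 342 and 174 to 269.5, -0.57 ± 0.16, adjusted p = 0.0273). Slc6a13 lost its call without vehicle array 3 or 4 or R1 20 array 1, 2 or 4 (adjusted p up to 0.167), Slc16a1 without vehicle array 1, 2 or 3 or R1 20 array 2, 3 or 4 (adjusted p up to 0.159) and Slc26a1 without vehicle array 2, 3 or 4 or R1 20 array 2, 3 or 4 (adjusted p up to 0.11).

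Among 18 lysosome genes, the membrane protein Cd63 was called higher (0.89 ± 0.26) and the protease Ctsh lower (-0.70 ± 0.20). Cd63 lost its call without vehicle array 1 or 4 or R1 20 array 1, 2, 3 or 4 (adjusted p up to 0.175), and Ctsh without vehicle array 1, 2 or 3 or R1 20 array 4 or 5 (adjusted p up to 0.124). None of 8 clock genes was called by limma, with 1 at an unadjusted p under 0.05, Bmal1 (33.8 to 52.5 with vehicle, 2.21 to 28.7 at R1 20, -1.39 ± 0.49, adjusted p = 0.105).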
